A study of Homo sapiens with 18 samples.

Results

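Expression of 9 transcription factors that direct myeloid blood cell formation (SPI1, CEBPA, CEBPB, CEBPD, CEBPE, GFI1, IRF8, KLF4 and RUNX1) was followed by RNA sequencing in 2 human acute myeloid leukaemia cell lines. The 9 genes were taken by symbol from the 19068 genes with a value in either line. All 9 had values in MOLM-13, which listed 17475 genes, and 8 had values in HL-60, which listed 17110; IRF8 had no value in the HL-60 tables used here. HL-60 is a promyelocytic line and MOLM-13 a monocytic line, and each is an established culture. Cells of either line received the solvent dimethyl sulfoxide (DMSO), decitabine (DAC) or NTX-301 for 48 h (day 2), so the 6 groups were HL-60 with DMSO, DAC or NTX-301 and MOLM-13 with DMSO, DAC or NTX-301. Each group held 3 replicates plated in triplicate wells, 18 samples in all. The labels state 30 nM in HL-60 cultures and 15 nM in MOLM-13 cultures, in wording that can be read as both drugs or as DAC alone; cell line and stated concentration cannot be told apart, and equal concentrations of the 2 drugs are not certain. DAC is a cytidine analogue that is built into DNA and traps DNA methyltransferases.

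Myeloid fate is set by a small network of DNA-binding proteins. PU.1, the product of SPI1, opens enhancers of monocyte and granulocyte genes. The C/EBP proteins share a leucine zipper and act in succession, with C/EBP alpha in progenitors entering granulocyte formation, C/EBP epsilon in late granulocyte maturation, and C/EBP beta and delta in inflammatory and monocytic settings. IRF8 and KLF4 favour monocytes, GFI1 represses monocytic genes in favour of neutrophils, and RUNX1 acts in stem and progenitor cells with its partner CBFB.

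The values are the authors' normalized log2 expression values, and the 2 lines appear to have been normalized apart. Low genes spanned little within a line: over its 9 samples, the median span was 0.021 in HL-60 where the mean was 0 to 3, 0.123 at 5 to 6, 0.239 at 8 to 9 and 0.164 at 12 to 15, and in MOLM-13 it was 0.0268, 0.184, 0.308 and 0.217. A fold change of a low gene may therefore be understated, and the method behind this is not given in the sources used here. Where a change is ranked by size below, the genes it is ranked against include these low ones. Read depth per sample is unknown. The 10 primary granule genes, which mark the promyelocyte stage, all had values in both lines, and 9 (HL-60) and 13 (MOLM-13) of 20 monocyte and macrophage genes did; CD14 had none in either line. Of the markers of other cells, 3 of 14 erythroid and megakaryocyte genes and 2 of 12 lymphoid genes were listed in HL-60, and 5 of 14 and 5 of 12 in MOLM-13.

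Among the 8 members with values in both lines, the DMSO samples differed most in CEBPE, KLF4 and CEBPD. IRF8 lay at 14.39 ± 0.050 in MOLM-13 (mean log2 value ± SD, n = 3) and, without a value in HL-60, could not be ranked. CEBPE lay at 12.85 ± 0.064 in HL-60 and at 8.19 ± 0.076 in MOLM-13 (mean log2 value ± SD, n = 3), a MOLM-13 minus HL-60 difference of −4.66, lower than in all but 0.4% of the 15517 genes with values in both lines. KLF4 went the other way, from 5.26 ± 0.037 in HL-60 to 9.03 ± 0.225 in MOLM-13, a difference of 3.77 at percentile 98.1 of those genes. For CEBPD the 2 levels were 8.10 ± 0.018 and 10.25 ± 0.041, a difference of 2.15. CEBPB was lower in MOLM-13 by 0.70 on the log2 scale (9.19 and 8.49), and GFI1 by 0.58 (14.50 and 13.91). SPI1 (12.05 and 11.95), CEBPA (14.59 and 14.52) and RUNX1 (13.06 and 13.26) had MOLM-13 minus HL-60 differences of −0.10, −0.07 and 0.20. The median of these signed differences over all shared genes was 0.16, which gives an offset between the lines and not a typical size. Because the lines appear to have been normalized separately, these differences between lines are descriptive and were not tested.

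DAC acts on cytosine methylation, which sits at CG pairs, so the sequence before the start is shown for the called members with the fewest (CEBPE and IRF8) and the most (CEBPA) such pairs, in capitals. Methylation itself was not measured. RefSeq promoter windows (assembly GRCh38.p14) were found for 7 of the 9 members, among 35116 windows in all; the 250 bases before the start are used here. CEBPE (chr14:23119256-23119505, minus strand) and CEBPA (chr19:33302535-33302784, minus strand) each have 1 start in the table, and IRF8 (chr16:85902580-85902829, plus strand) is shown at the first of 2.
CEBPE: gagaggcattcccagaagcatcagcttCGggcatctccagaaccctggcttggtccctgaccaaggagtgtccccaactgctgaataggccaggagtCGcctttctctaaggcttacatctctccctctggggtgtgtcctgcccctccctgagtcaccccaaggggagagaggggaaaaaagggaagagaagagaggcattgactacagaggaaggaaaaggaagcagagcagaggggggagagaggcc
IRF8: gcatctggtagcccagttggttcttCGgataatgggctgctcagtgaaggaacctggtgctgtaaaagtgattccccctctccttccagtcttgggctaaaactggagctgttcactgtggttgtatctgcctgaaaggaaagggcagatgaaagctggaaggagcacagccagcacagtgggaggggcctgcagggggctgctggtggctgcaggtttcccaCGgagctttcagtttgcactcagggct
CEBPA: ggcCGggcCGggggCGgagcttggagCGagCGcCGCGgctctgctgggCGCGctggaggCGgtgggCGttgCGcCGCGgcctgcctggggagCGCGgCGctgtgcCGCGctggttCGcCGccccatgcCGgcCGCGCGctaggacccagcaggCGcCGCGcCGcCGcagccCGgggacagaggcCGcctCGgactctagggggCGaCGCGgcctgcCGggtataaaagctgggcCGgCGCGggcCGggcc
The CEBPE window held 2 CG pairs, as did the first IRF8 window, and 14.7% of all promoter windows held fewer; the median was 11. The second IRF8 start had 4. CEBPA held 41, more than 98.3% of windows, RUNX1 held 32, KLF4 held 25, the starts of CEBPB held 25 and 38, and the starts of GFI1 held 19, 17 and 16.

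Short motifs of the members' own protein families were searched on both strands of these windows. GAGGAA, a core of PU.1 sites, was present before CEBPE, KLF4, RUNX1 and GFI1 start 3, and in 23.6% of all windows. GAAANNGAA, the spaced repeat bound by interferon regulatory factors, was found before CEBPE and in 6.88% of all windows. A RUNX core (TGTGGT or TGCGGT) stood before the first IRF8 start and GFI1 start 2, and in 16.3% of windows. TTGCNNAA, a C/EBP core, was found before GFI1 start 2 (9.05% of windows), and AAATCA, the GFI1 core, before KLF4 (11.6%). CACCC, bound by KLF proteins, was present before CEBPE, RUNX1, the second CEBPB start and GFI1 starts 1 and 3, and in 54.7% of windows. Neither these motifs nor the CG pairs were tested against expression.

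**Figure D1:**
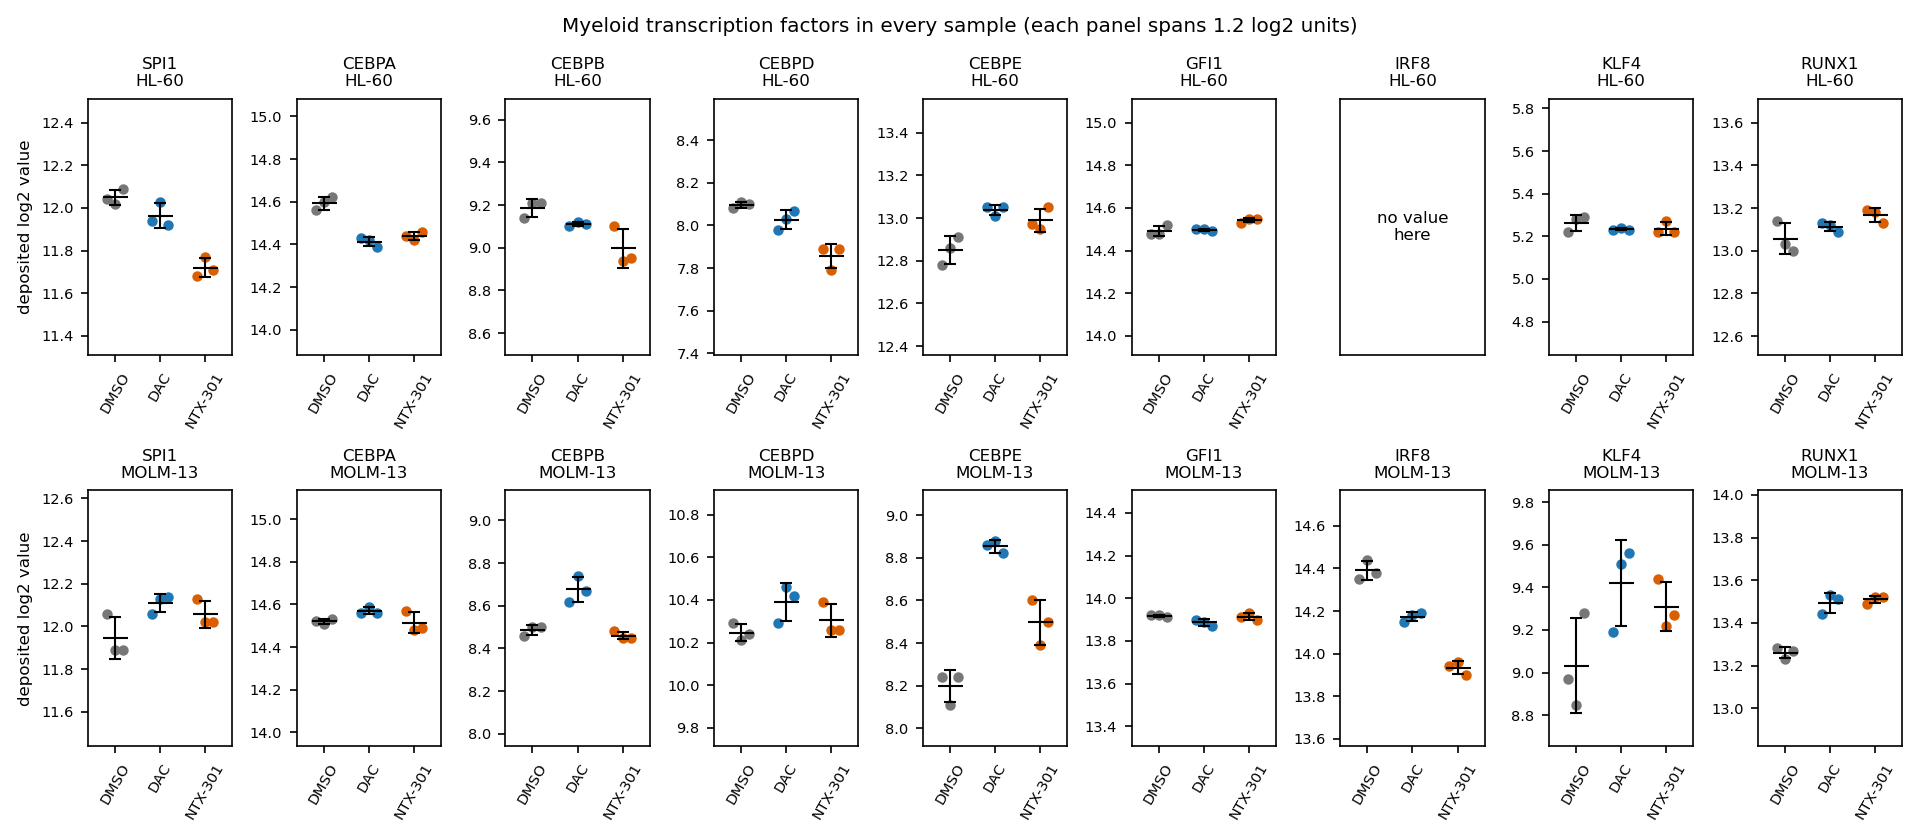
Deposited log2 value (vertical axis) of each member in HL-60 (top row) and MOLM-13 (bottom row) with DMSO, DAC or NTX-301 (horizontal axis); points are single samples, black bars the mean and SD of 3. Every panel spans the same range of log2 units around its own mean, and CEBPE in MOLM-13 shows the widest separation, with group means of 8.19 (DMSO), 8.50 (NTX-301) and 8.85 (DAC).

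SPI1 (NCBI Gene 6688) fell with NTX-301 in HL-60 and rose with DAC in MOLM-13. In HL-60 its log2 values were 12.04, 12.02 and 12.09 with DMSO, 11.94, 12.03 and 11.92 with DAC, and 11.68, 11.77 and 11.71 with NTX-301. The 3 NTX-301 samples lay below all others, and DAC replicate 2 lay inside the DMSO range. The NTX-301 minus DMSO difference was −0.32 (SE 0.033, limma adjusted p 3.33e-06), 0.80 of the DMSO level and larger in size than that of 96.1% of genes. With DAC the difference was −0.088 (adjusted p 0.0709), not past the threshold of 0.05; it passed without DAC replicate 2 (−0.12, adjusted p 0.0181) and when genes with a mean log2 value under 5 were left out (adjusted p 0.046). In MOLM-13 the log2 values were 12.06, 11.89 and 11.89 with DMSO, 12.06, 12.13 and 12.14 with DAC, and 12.13, 12.02 and 12.02 with NTX-301. DMSO replicate 1 read the same to 2 decimals as the lowest DAC sample and lay above 2 of the NTX-301 samples. DAC raised SPI1 by 0.16 (SE 0.047, limma adjusted p 0.018), a call that was lost without DAC replicate 2 or 3 or DMSO replicate 2 or 3 (0.13 to 0.15, adjusted p 0.0571 to 0.0762). The NTX-301 difference was 0.11 (adjusted p 0.0766) and was called without DMSO replicate 1 (0.16, adjusted p 0.007), under the stricter filter (adjusted p 0.0456) and under quantile normalization (0.18, adjusted p 0.018).

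CEBPA (NCBI Gene 1050), a gene whose loss of function blocks granulocyte formation, fell with both drugs in HL-60 and was not called in MOLM-13. HL-60 values were 14.56, 14.60 and 14.62 with DMSO, 14.43, 14.42 and 14.39 with DAC, and 14.44, 14.42 and 14.46 with NTX-301. All 6 drug-treated samples lay below all 3 DMSO samples. The differences were −0.18 (SE 0.021, limma adjusted p 4.17e-05) with DAC and −0.15 (adjusted p 5.51e-05) with NTX-301, and both calls held under every alternative run. MOLM-13 values were 14.52, 14.51 and 14.53 with DMSO, 14.56, 14.59 and 14.56 with DAC, and 14.57, 14.48 and 14.49 with NTX-301. The DAC samples sat just above the DMSO samples, by 0.051 (adjusted p 0.151), and the NTX-301 samples spread around them (−0.0099, adjusted p 0.78). Quantile normalization gave called rises of 0.16 (adjusted p 0.000793) and 0.13 (adjusted p 0.00213) there. CEBPA-DT, the non-coding transcript that starts next to CEBPA on the opposite strand, differed from DMSO by −0.19 (limma adjusted p 0.000893) and −0.27 (adjusted p 2.40e-05) in HL-60, and 0.17 (adjusted p 0.0442) and 0.11 (adjusted p 0.147) in MOLM-13 with DAC and NTX-301. Whether the counting used strand is not given in the sources used here, so reads of overlapping or antisense transcripts cannot be told apart.

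CEBPB (NCBI Gene 1051) and CEBPD (NCBI Gene 1052), the inflammation-linked members of the family, fell with NTX-301 in HL-60 and rose with DAC in MOLM-13. HL-60 values of CEBPB were 9.14, 9.21 and 9.21 with DMSO, 9.10, 9.12 and 9.11 with DAC, and 9.10, 8.94 and 8.95 with NTX-301. NTX-301 replicate 1 lay close to the DAC samples and the other 2 well below. The NTX-301 difference was −0.19 (SE 0.044, limma adjusted p 0.00346) and the DAC difference −0.075 (adjusted p 0.244). In MOLM-13, CEBPB read 8.46, 8.50 and 8.50 with DMSO, 8.62, 8.74 and 8.67 with DAC, and 8.48, 8.45 and 8.45 with NTX-301. The 3 DAC samples lay above all others, and 2 NTX-301 samples lay just below the DMSO range. The DAC rise was 0.19 (SE 0.049, limma adjusted p 0.01), which missed the threshold under quantile normalization (0.10, adjusted p 0.125). With NTX-301 the difference was −0.027 (adjusted p 0.682). CEBPB-AS1, a non-coding gene named after CEBPB, passed the threshold in no comparison within a line (limma adjusted p from 0.191 to 0.88).

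CEBPD values in HL-60 were 8.08, 8.11 and 8.10 with DMSO, 7.98, 8.03 and 8.07 with DAC, and 7.89, 7.79 and 7.89 with NTX-301. The 3 groups formed 3 steps without overlap. The NTX-301 step of −0.24 passed the test (SE 0.042, limma adjusted p 0.000407) and the DAC step of −0.07 did not (adjusted p 0.249). In MOLM-13 the values were 10.29, 10.21 and 10.24 with DMSO, 10.29, 10.46 and 10.42 with DAC, and 10.39, 10.26 and 10.26 with NTX-301. DAC replicate 1 lay inside the DMSO range and the other 2 DAC samples above it. The DAC difference of 0.14 (SE 0.051, limma adjusted p 0.0467) passed narrowly; it missed under median centring (0.11, adjusted p 0.0968), under quantile normalization (0.13, adjusted p 0.0784), with the replicate block (adjusted p 0.0784), with no trend (adjusted p 0.0664), in a fit of the 2 groups alone (adjusted p 0.0551), and without DAC replicate 2 or 3, DMSO replicate 2 or 3 or NTX-301 replicate 2 or 3 (0.11 to 0.14, adjusted p 0.0549 to 0.163). For NTX-301 the difference was 0.057 (adjusted p 0.396).

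CEBPE (NCBI Gene 1053), needed for the secondary granules of neutrophils and eosinophils, was the one member that rose in all 4 comparisons with DMSO. HL-60 values were 12.78, 12.86 and 12.91 with DMSO, 13.05, 13.01 and 13.05 with DAC, and 12.97, 12.95 and 13.05 with NTX-301. Every drug-treated sample lay above every DMSO sample. The rises were 0.19 (SE 0.032, limma adjusted p 0.000877) with DAC and 0.14 (SE 0.032, adjusted p 0.00343) with NTX-301. MOLM-13 values were 8.24, 8.11 and 8.24 with DMSO, 8.86, 8.88 and 8.82 with DAC, and 8.60, 8.39 and 8.50 with NTX-301. The groups formed 3 levels without overlap, DMSO lowest and DAC highest. DAC raised CEBPE by 0.66 (SE 0.062, limma adjusted p 1.48e-05), 1.58-fold on this scale and larger in size than the change of 99.8% of genes, and NTX-301 raised it by 0.30 (adjusted p 0.00189), 1.23-fold. All 4 calls held under every alternative run. Even with DAC, the MOLM-13 level of 8.85 ± 0.030 stayed below that of HL-60 with DMSO, across lines that appear to have been normalized apart.

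GFI1 (NCBI Gene 2672), the repressor that favours neutrophils, passed the threshold in none of the comparisons with DMSO. In HL-60 it read 14.48, 14.48 and 14.52 with DMSO, 14.50, 14.50 and 14.49 with DAC, and 14.53, 14.55 and 14.55 with NTX-301. The NTX-301 samples sat slightly above the rest, by 0.046 (SE 0.018, limma adjusted p 0.0607), and this passed without DMSO replicate 3 (0.059, adjusted p 0.0222), with no mean-variance trend (adjusted p 0.0421) and under quantile normalization (0.084, adjusted p 0.00408). For DAC the difference was 0.00092 (adjusted p 0.977). MOLM-13 values ran from 13.87 to 13.93 over all 9 samples, with differences of −0.027 (adjusted p 0.348) for DAC and −0.0021 (adjusted p 0.945) for NTX-301. Their sign depended on the scaling: quantile normalization gave 0.062 (adjusted p 0.0261) and 0.10 (adjusted p 0.00188), and median centring gave −0.063 for DAC (adjusted p 0.0464).

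IRF8 (NCBI Gene 3394), a factor of monocyte and dendritic cell formation, fell with both drugs in MOLM-13, the line in which it had values. These were 14.35, 14.44 and 14.38 with DMSO, 14.15, 14.18 and 14.19 with DAC, and 13.94, 13.96 and 13.90 with NTX-301. The 3 groups formed 3 levels without overlap, each narrower than the gap to the next. DAC lowered IRF8 by 0.22 on the log2 scale (SE 0.028, limma adjusted p 0.000112). The NTX-301 difference was −0.46 (SE 0.028, adjusted p 4.90e-07), 0.73 of the DMSO level and larger in size than that of 98.3% of genes. Both calls held under every alternative run, though the DAC difference shrank to −0.12 (adjusted p 0.00373) under quantile normalization.

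KLF4 (NCBI Gene 9314), linked to monocyte formation, had the widest spread between replicates of the members in MOLM-13 (SD 0.225, 0.199 and 0.115 with DMSO, DAC and NTX-301). In HL-60 its values were low and ran from 5.22 to 5.29 over all 9 samples; both drug differences were −0.03 (limma adjusted p 0.411 and 0.383), and the NTX-301 difference was called under quantile normalization (−0.062, adjusted p 0.0496). MOLM-13 values were 8.97, 8.85 and 9.28 with DMSO, 9.19, 9.51 and 9.56 with DAC, and 9.44, 9.22 and 9.27 with NTX-301. DMSO replicate 3 lay above DAC replicate 1 and above 2 of the NTX-301 samples. The DAC rise of 0.39 (SE 0.115, limma adjusted p 0.02) was lost without DAC replicate 2 or 3 or DMSO replicate 1 or 2 (0.29 to 0.36, adjusted p 0.0595 to 0.0862), without the trend (adjusted p 0.0541) and under quantile normalization (0.33, adjusted p 0.0585). The NTX-301 difference of 0.28 (adjusted p 0.0712) was called without DMSO replicate 3 (0.40, adjusted p 0.0115), without DAC replicate 1 (adjusted p 0.0383), in a fit of the 2 groups alone (adjusted p 0.0464) and under the stricter filter (adjusted p 0.0351).

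RUNX1 (NCBI Gene 861), the progenitor factor often altered in leukaemia, rose with both drugs in MOLM-13. The values there were 13.28, 13.23 and 13.27 with DMSO, 13.44, 13.53 and 13.51 with DAC, and 13.49, 13.52 and 13.52 with NTX-301. All 6 drug-treated samples lay above all 3 DMSO samples, and the 2 drugs overlapped. The rises were 0.23 (SE 0.027, limma adjusted p 5.80e-05) with DAC and 0.25 (adjusted p 2.11e-05) with NTX-301, and both held under every alternative run. In HL-60 the values were 13.14, 13.03 and 13.00 with DMSO, 13.13, 13.12 and 13.09 with DAC, and 13.19, 13.18 and 13.13 with NTX-301. DMSO replicate 1 lay above the other 2 DMSO samples and among the treated ones. The NTX-301 rise of 0.11 (SE 0.032, limma adjusted p 0.0165) was lost under median centring (0.078, adjusted p 0.0661) and without DMSO replicate 2 or 3 or NTX-301 replicate 1 or 2 (0.077 to 0.10, adjusted p 0.055 to 0.0801). With DAC the difference was 0.054 (adjusted p 0.239), called without DMSO replicate 1 (0.10, adjusted p 0.0179). RUNX1-IT1, a non-coding transcript from within RUNX1, rose in all 4 comparisons: by 0.22 (limma adjusted p 0.000548) and 0.16 (adjusted p 0.00244) with DAC and NTX-301 in HL-60, and by 0.38 (adjusted p 0.00314) and 0.64 (adjusted p 5.94e-05) in MOLM-13. Because it lies within RUNX1, its reads cannot be told apart here from those of unspliced RUNX1 RNA.

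**Figure D2:**
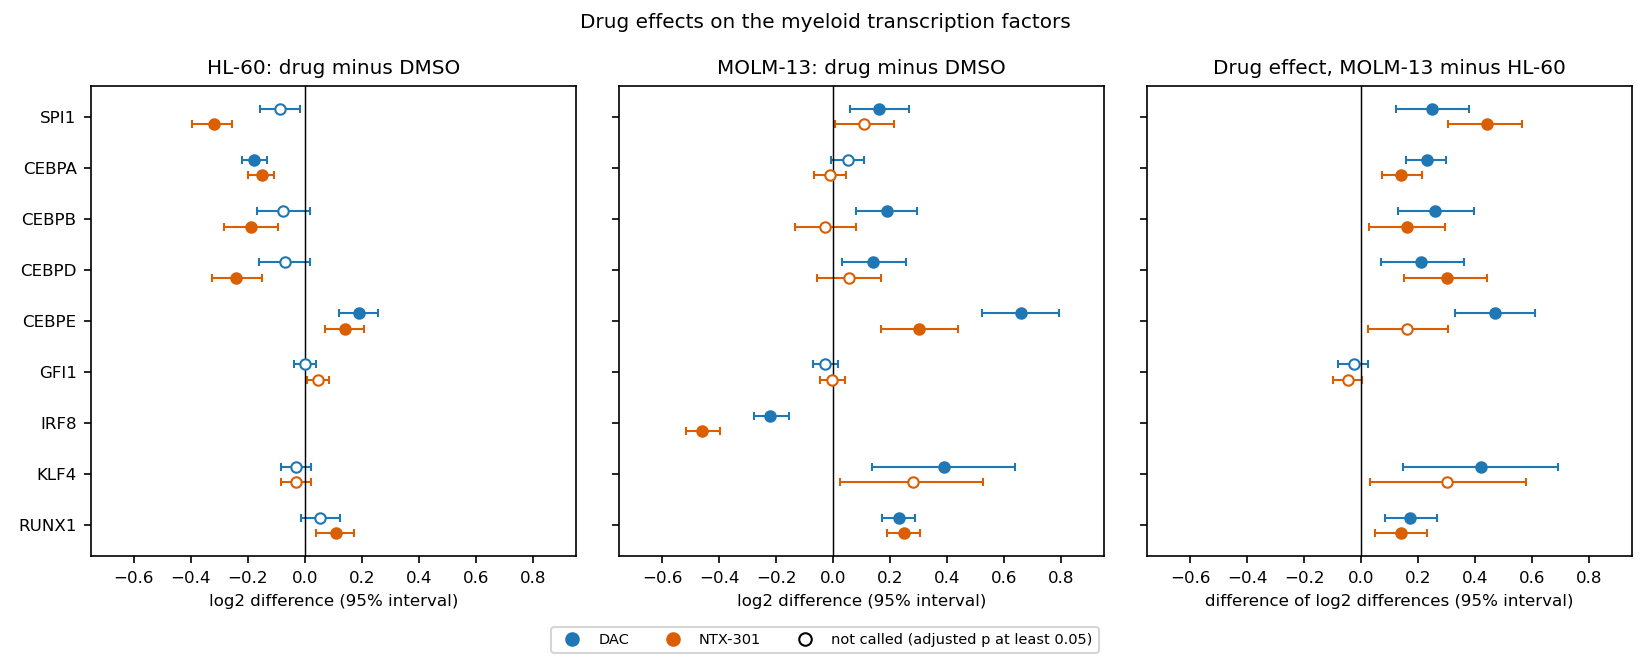
Log2 difference from DMSO of each member (horizontal axis) with DAC (blue) and NTX-301 (orange) in HL-60 (left) and MOLM-13 (middle), and the MOLM-13 minus HL-60 difference of these effects (right); bars are unadjusted 95% intervals from limma and open circles did not pass the adjusted threshold. On the right, 7 members pass with DAC and 5 with NTX-301, and all of these lie above 0.

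Counted over the members, NTX-301 in HL-60 and DAC in MOLM-13 gave the most calls. In HL-60, DAC changed 2 of 8 members, 1 higher and 1 lower; over all genes 24.2% were called, 11.6% higher and 12.6% lower. For NTX-301 the count was 6 of 8, 2 higher and 4 lower, against 37.4% of all genes, 18.3% higher and 19.2% lower (median centring turned the split of all genes to 2310 higher and 5400 lower). With DAC in MOLM-13, 7 of 9 members changed, 6 upward and 1 downward; the background was 36.6%, with 15.4% higher and 21.2% lower (1960 and 5731 genes after median centring). That count fell to 4 without DAC replicate 2, DAC replicate 3 or DMSO replicate 2. NTX-301 changed 3 of 9 in MOLM-13, 2 higher and 1 lower, where 45.1% of all genes were called, 20.3% higher and 24.8% lower (2735 and 5760 after median centring); it reached 5 under the stricter filter and 6 under quantile normalization. The median log2 difference of the members for DAC and NTX-301 was −0.05 and −0.092 within HL-60 but 0.16 and 0.057 within MOLM-13, beside medians of all genes between 0.00064 and 0.0034.

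The 2 drugs were then compared with each other, over 8 members in HL-60 and 9 in MOLM-13, with p-values adjusted over all genes. In HL-60, NTX-301 left SPI1 below its DAC level (−0.24, SE 0.033, limma adjusted p 9.70e-05), and CEBPD likewise (−0.17, adjusted p 0.00717). These were 2 of 8 members, none higher, where 30.4% of all genes were called, 15.4% higher and 15.0% lower (1818 and 4860 genes after median centring). In MOLM-13, CEBPE differed by −0.35 (SE 0.062, adjusted p 0.0073), IRF8 by −0.24 (adjusted p 0.00105) and CEBPB by −0.21 (adjusted p 0.0227). These 3 of 9, all lower with NTX-301, stood against 7.42% of all genes called, 3.01% higher and 4.41% lower. The number of all genes called was 1297 and moved with single samples, to 767 without DAC replicate 1, 479 without NTX-301 replicate 2 and 462 without NTX-301 replicate 3. The CEBPB call was lost without DAC replicate 2 or 3 or NTX-301 replicate 2 or 3 (−0.22 to −0.18, adjusted p 0.0521 to 0.086).

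For the other members the test between drugs missed the threshold, which does not show equal levels, so unadjusted 95% intervals of the NTX-301 minus DAC difference follow. In HL-60 the interval ran from −0.022 to 0.069 for CEBPA, from −0.117 to 0.022 for CEBPE, from −0.052 to 0.054 for KLF4 and from −0.016 to 0.119 for RUNX1. CEBPB (−0.208 to −0.020) and GFI1 (0.006 to 0.084) had intervals that left out 0 without passing the adjusted threshold (limma adjusted p 0.0639 and 0.0763). CEBPB was called lower there under median centring (−0.14, adjusted p 0.0126), under quantile normalization (−0.15, adjusted p 0.0257) and without NTX-301 replicate 1 (−0.17, adjusted p 0.00669). Quantile normalization also called CEBPA (0.075, adjusted p 0.0172) and GFI1 (0.085, adjusted p 0.00498) higher with NTX-301 than with DAC in HL-60. In MOLM-13 the interval was −0.155 to 0.051 for SPI1, −0.117 to −0.004 for CEBPA, −0.199 to 0.026 for CEBPD and −0.021 to 0.069 for GFI1. RUNX1, raised by both drugs, had an interval of −0.041 to 0.075, and KLF4 had the widest of the 9 (−0.365 to 0.139).

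**Figure D3:**
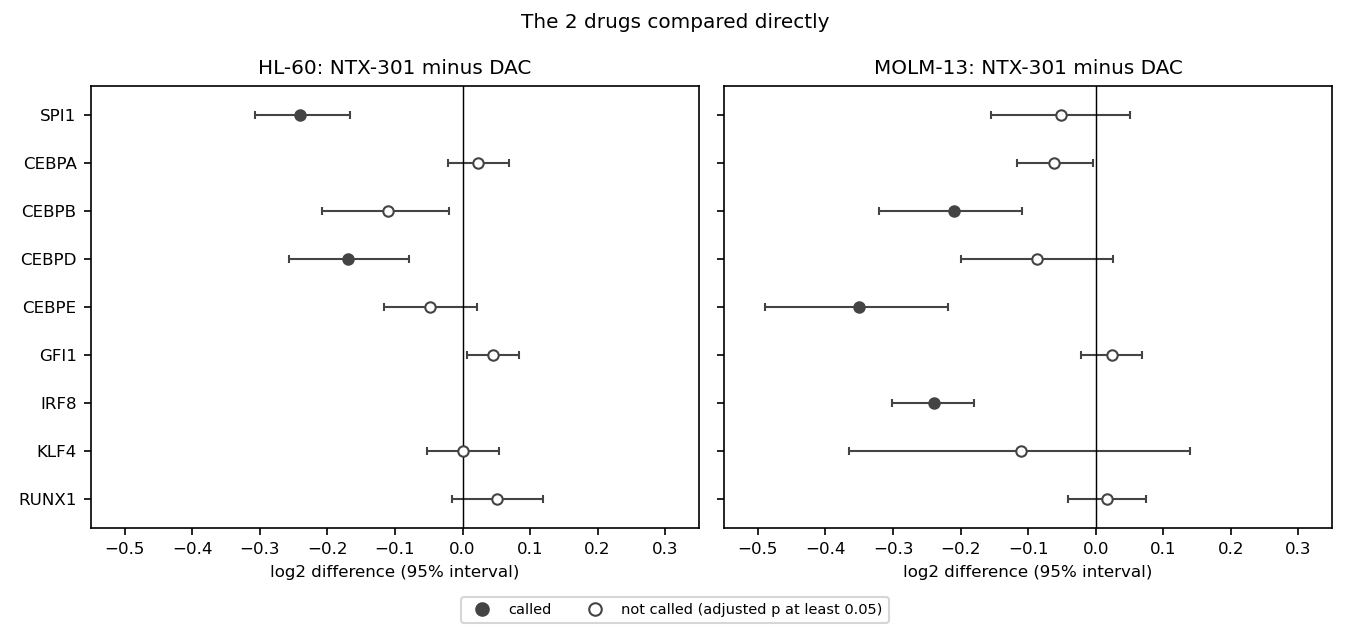
NTX-301 minus DAC log2 difference of each member (horizontal axis) in HL-60 (left) and MOLM-13 (right) with unadjusted 95% intervals; filled circles passed the adjusted threshold. The filled circles are SPI1 and CEBPD in HL-60 and CEBPB, CEBPE and IRF8 in MOLM-13, all below 0.

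The difference of a drug's effect between lines was tested directly, as its effect in MOLM-13 minus its effect in HL-60. The DAC effect was higher in MOLM-13 for 7 of 8 members and lower for none, where 30.0% of 15474 genes were called, 12.1% higher and 17.9% lower (1359 and 4382 genes after median centring). CEBPE had the largest of these differences (0.47, SE 0.067, limma adjusted p 3.09e-05), followed by KLF4 (0.42, adjusted p 0.0203), CEBPB (0.26, adjusted p 0.00382), SPI1 (0.25, adjusted p 0.00447), CEBPA (0.23, adjusted p 4.02e-05), CEBPD (0.21, adjusted p 0.0259) and RUNX1 (0.17, adjusted p 0.00474). For CEBPA the difference joins a called fall in HL-60 to an uncalled rise in MOLM-13, and for CEBPE it joins called rises of unequal size. The KLF4 call was lost without MOLM-13 DAC replicate 2 or 3 or DMSO replicate 2 (0.33 to 0.37, adjusted p 0.052 to 0.0639). The CEBPD call was lost without any of those 3, without HL-60 DAC replicate 1 or without HL-60 DMSO replicate 2 (0.18 to 0.21, adjusted p 0.0515 to 0.072). GFI1 differed by −0.027 (adjusted p 0.439). KLF4 ran only from 5.22 to 5.29 over the 9 HL-60 samples, a low level at which a fold change may be understated. How far this enters its line difference with either drug was not tested.

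The NTX-301 effect was higher in MOLM-13 for 5 of 8 members and lower for none, beside 40.0% of all genes, 17.6% higher and 22.4% lower. SPI1 led with 0.44 (SE 0.061, limma adjusted p 1.59e-05), joining a called fall in HL-60 to an uncalled rise in MOLM-13. CEBPD differed by 0.30 (adjusted p 0.00225), CEBPA by 0.14 (adjusted p 0.00198; 0.23 under quantile normalization, adjusted p 2.96e-05) and RUNX1 by 0.14 (adjusted p 0.0144). CEBPB (0.16, adjusted p 0.049) stood at the threshold; with 1 sample left out it kept the call only without HL-60 DMSO replicate 1, HL-60 NTX-301 replicate 1 or MOLM-13 DAC replicate 1 or 2, and lost it in the other 14 fits (0.13 to 0.17, adjusted p 0.0545 to 0.127) and under quantile normalization (0.11, adjusted p 0.161). CEBPE (0.16, adjusted p 0.06), KLF4 (0.30, adjusted p 0.0709) and GFI1 (−0.048, adjusted p 0.137) missed it. CEBPE passed under the stricter filter (adjusted p 0.0482) and without HL-60 DMSO replicate 1, HL-60 NTX-301 replicate 3, MOLM-13 DMSO replicate 1 or 3 or MOLM-13 NTX-301 replicate 2 (0.18 to 0.22, adjusted p 0.0103 to 0.0477), but shrank to 0.026 (adjusted p 0.811) under quantile normalization. KLF4 passed under that filter (adjusted p 0.0455), without MOLM-13 DAC replicate 1 (0.30, adjusted p 0.0318) and without MOLM-13 DMSO replicate 3 (0.43, adjusted p 0.00522).

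Genes that followed a member most closely over the 9 MOLM-13 samples were sought among 697 genes that averaged at least 8 on the log2 scale and spanned at least 0.5; no HL-60 member varied that much. CEBPE was closest to VAT1 (Pearson's r 0.991) and to THBD (0.973), which encodes the anticoagulant receptor thrombomodulin. VAT1 lay at 11.56 ± 0.053, 12.03 ± 0.022 and 11.74 ± 0.059 with DMSO, DAC and NTX-301, the order shown by CEBPE. IRF8 was closest to SAPCD2 (r 0.995; 12.02 ± 0.044, 11.80 ± 0.049 and 11.56 ± 0.048) and to SLC25A10 (0.986), a mitochondrial dicarboxylate carrier. KLF4 was closest to the immediate-early genes DUSP1 (0.972) and FOSB (0.970), which shared its spread between replicates: within the DMSO group the SD was 0.286 for DUSP1 and 0.472 for FOSB beside 0.225 for KLF4. These correlations share the same 9 libraries and 3 group means, and describe likeness of pattern only.

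Around the members, the 26 partners and cofactors split between rises and falls. Their counts, and those of the lists below, stand beside the shares of all genes called against DMSO. In HL-60 these were 24.2% with DAC (11.6% higher, 12.6% lower) and 37.4% with NTX-301 (18.3% and 19.2%). In MOLM-13 they were 36.6% with DAC (15.4% and 21.2%) and 45.1% with NTX-301 (20.3% and 24.8%). In HL-60, 21 of them were tested; DAC raised 7 and lowered 7, and NTX-301 raised 7 and lowered 8. RUNX2, a relative of RUNX1, rose by 0.37 and 0.43 (limma adjusted p 8.81e-07 and 7.01e-08), and TRIB1, which targets C/EBP alpha for breakdown, fell by 0.21 and 0.53 on the log2 scale (adjusted p 8.50e-06 and 3.23e-10) with DAC and NTX-301. ID2, an inhibitor of helix-loop-helix factors, fell by 0.18 with DAC and rose by 0.54 with NTX-301 (adjusted p 0.00203 and 5.96e-08). In MOLM-13, 22 were tested; DAC raised 5 and lowered 9, and NTX-301 raised 8 and lowered 8. The C/EBP relative CEBPG (−0.25 and −0.28) and the similarly named CEBPZ (−0.25 and −0.30) fell with DAC and NTX-301 in MOLM-13. Their limma adjusted p lay between 1.41e-05 and 7.86e-05. ETV6, an ETS-family repressor, rose there by 0.19 and 0.31 (adjusted p 0.000958 and 1.73e-05). The list's median was 0.03 (DAC) and 0.04 (NTX-301) in HL-60, and in MOLM-13 it was −0.05 and −0.06.

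Of 18 progenitor factors, 13 were tested in each line. In HL-60, DAC raised 6 and lowered 3 and NTX-301 raised 6 and lowered 4; GATA2, a stem and mast cell factor, rose by 0.78 and 1.33 (limma adjusted p 6.57e-10 and 1.18e-12), IKZF2 by 1.46 with either drug (adjusted p 4.49e-14 and 3.53e-14), and the stem cell factor receptor KIT fell by 0.61 and 0.15 on the log2 scale (adjusted p 3.39e-08 and 0.00425). In MOLM-13, DAC raised 3 and lowered 7 and NTX-301 raised 3 and lowered 4; MYB (−0.11 with either drug) and MYC (−0.13 and −0.15) fell, with adjusted p between 0.00104 and 0.00887. The median was 0.05 (DAC) and 0.07 (NTX-301) in HL-60, and in MOLM-13 it was −0.08 and 0.01.

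Of the 20 genes linked to PU.1, 19 were tested in each line. In HL-60, where SPI1 fell with NTX-301, that drug raised 9 and lowered 4 (median 0.08); CSF1R, the receptor for macrophage colony-stimulating factor, rose by 0.42 (limma adjusted p 4.74e-07) and CYBB, the phagocyte oxidase subunit, by 0.48 (adjusted p 2.47e-07), while the kinase gene FES fell by 0.35 on the log2 scale (adjusted p 8.89e-08). DAC raised 4 of 19 and lowered 5 in HL-60 (median 0.00). CYBB rose by 0.48 with DAC too (limma adjusted p 6.68e-07), and FES fell by 0.13 (adjusted p 0.00178). CSF1R was not called with DAC (0.08, adjusted p 0.104). In MOLM-13, DAC raised 8 of 19 and lowered 3 (median 0.07) and NTX-301 raised 8 and lowered 4 (median 0.06). There CYBB rose by 0.89 and 0.69 (adjusted p 1.78e-07 and 6.32e-07) and ITGAM, the integrin CD11b of mature myeloid cells, by 0.64 and 0.71 (adjusted p 4.48e-07 and 1.82e-07).

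Granule genes include textbook targets of C/EBP proteins. In HL-60, DAC raised 6 of 10 primary granule genes and lowered 1 (median 0.14), whereas NTX-301 raised 1 and lowered 7 (median −0.23). RNASE2 (0.65, limma adjusted p 9.95e-09) and SRGN (0.22, adjusted p 4.91e-06) were among the 6 raised by DAC. MPO was the 1 it lowered (−0.07, adjusted p 0.0184). Between the drugs 9 of 10 were lower with NTX-301 and none higher, where 15.0% of all genes were called lower and 15.4% higher. PRTN3, the granule protease proteinase 3, differed from DMSO by −0.76 with NTX-301 (limma adjusted p 7.04e-10) and by 0.06 with DAC (adjusted p 0.246). In MOLM-13, DAC raised 6 of 10 and lowered 1 (median 0.16) and NTX-301 raised 4 and lowered 1 (median 0.04); MPO, myeloperoxidase, rose by 0.72 with DAC (adjusted p 4.07e-08) and fell by 0.09 with NTX-301 (adjusted p 0.017). The NTX-301 effect on this list was higher in MOLM-13 than in HL-60 for 8 of 10 genes and lower for 2. Over all genes, 17.6% were called higher and 22.4% lower in that test. Of 15 secondary granule genes linked to C/EBP epsilon, 3 had values in either line. HP, haptoglobin, rose in MOLM-13 by 0.59 and 0.54 (adjusted p 2.15e-05 and 2.49e-05) and ORM1 by 0.77 and 0.19 (adjusted p 7.97e-06 and 0.0362); in HL-60 neither was called with either drug. The third, CYBA, a subunit of the phagocyte oxidase, fell with NTX-301 by 0.33 in HL-60 and by 0.19 in MOLM-13 on the log2 scale (adjusted p 3.86e-06 and 0.000927) and was not called with DAC (−0.08 and −0.07, adjusted p 0.115 and 0.164). For the 3 genes that makes 2 higher with DAC, and 2 higher and 1 lower with NTX-301, in MOLM-13, and 1 lower with NTX-301 in HL-60.

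Most of the monocyte and macrophage genes tested in MOLM-13 rose with either drug. DAC raised 11 of 13 and lowered 1 (median 0.52), and NTX-301 raised 10 and lowered 1 (median 0.30), while IRF8 fell with both. CD86, a co-stimulatory surface protein, rose by 0.86 and 0.74 (limma adjusted p 2.33e-07 and 5.31e-07), and CD68 by 0.68 and 0.46 (adjusted p 2.55e-07 and 2.73e-06). The 1 gene lowered by each drug was CCR2, by 0.28 and 0.46 on the log2 scale (adjusted p 7.59e-05 and 1.62e-06). In HL-60, DAC raised 2 of 9 and lowered none (median 0.04) and NTX-301 raised 5 and lowered 1 (median 0.10). The DAC count of 2 of 9 lay near the 24.2% of all genes called. The DAC effect was higher in MOLM-13 for 7 of 9 of these genes and lower for 1. Over all genes, 12.1% were called higher and 17.9% lower in that test. Whether a larger share of cells or more RNA per cell lies behind a change cannot be told apart in these bulk samples.

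**Figure D4:**
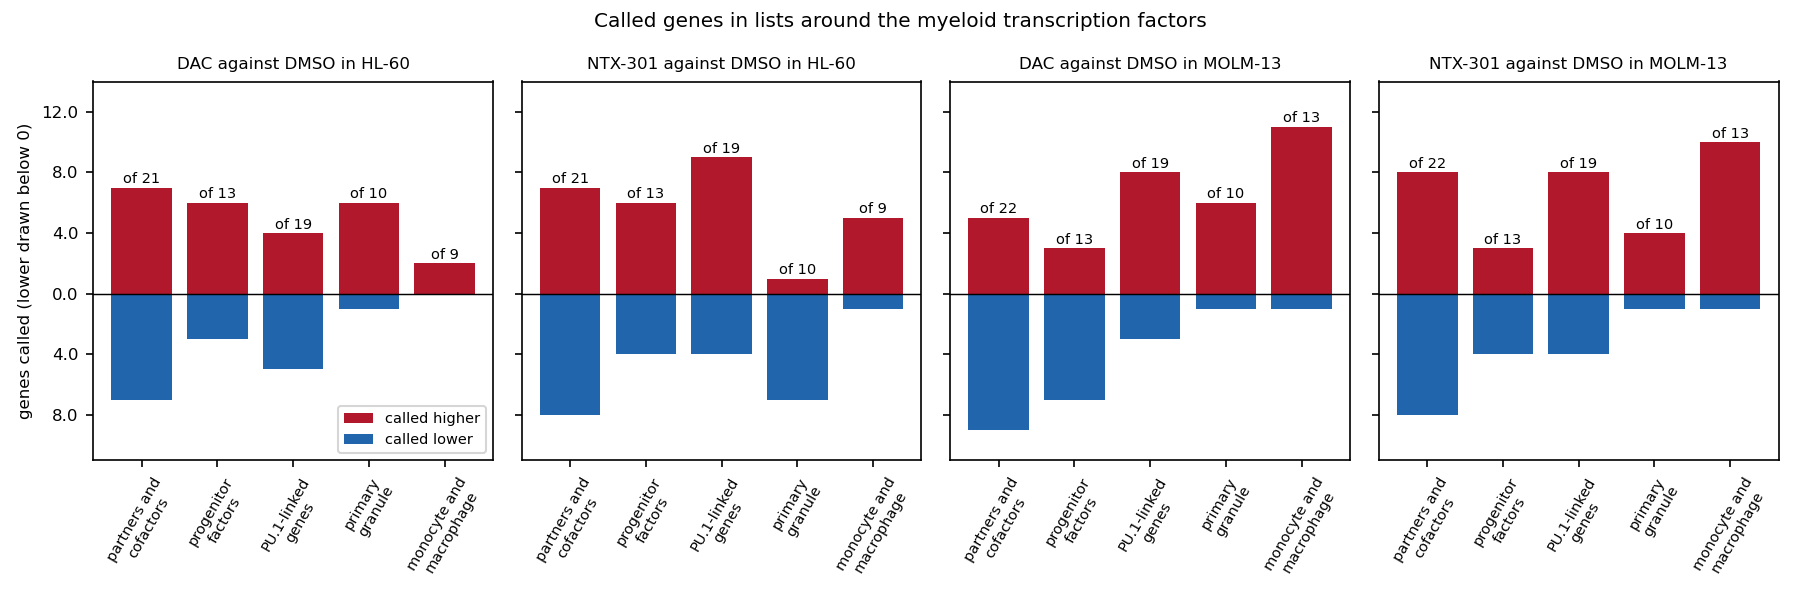
Number of genes called higher (red, upward) or lower (blue, drawn below 0) in 5 gene lists (horizontal axis) for each drug against DMSO; the text above a bar gives the number tested. The monocyte and macrophage list in MOLM-13 shows 11 and 10 rises of 13, and the primary granule list in HL-60 changes from 6 rises with DAC to 7 falls with NTX-301.

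Markers of other cell types moved beside these results in places, and their part in them was not tested. In HL-60, 4 of 5 listed eosinophil and basophil genes rose with DAC (median 0.64), and 3 rose and 1 fell with NTX-301 (median 0.19); EPX, eosinophil peroxidase, rose by 2.70 and 2.03 (limma adjusted p 2.13e-15 and 3.53e-14). The log2 of their summed level was 18.21 to 18.27 with DMSO, 18.65 to 18.73 with DAC and 17.71 to 17.74 with NTX-301. Nearly all of that sum was PRG2, the eosinophil major basic protein gene, with mean log2 values of 18.23, 18.68 and 17.70. PRG2 rose by 0.44 with DAC (limma adjusted p 3.63e-09) and fell by 0.53 on the log2 scale with NTX-301 (adjusted p 2.75e-10). In MOLM-13, 1 of 7 rose and 1 fell with DAC, and 1 fell with NTX-301. These shares can be read against the shares of all genes called, which in HL-60 were 24.2% (DAC) and 37.4% (NTX-301), and for MOLM-13 were 36.6% and 45.1%; the marker counts in MOLM-13 given here all lie below them. Of the erythroid and megakaryocyte genes, 2 of 3 rose with each drug in HL-60, and 1 of 5 fell with NTX-301 in MOLM-13. Of the lymphoid genes, NTX-301 raised 1 of 2 in HL-60 and 1 of 5 in MOLM-13; CD3E, which defines T cells, had no value in either line.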

How the data were processed

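Per the labels' protocols, column-purified total RNA went into a strand-preserving library kit. The submitters' processing notes name FastQC, Trimmomatic 0.38, HISAT2, StringTie and hg19; the counting, the normalization method, the annotation and the use of strand are not given in the sources used here. The authors deposited 1 normalized log2 expression value per gene and sample, read as log2 from the values, and each line holds its own gene set. Members were matched by symbol.

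Groups of 3 were compared with limma 3.58.1 in R 4.3.3 (two-sided, eBayes with a mean-variance trend). Each line was fitted apart (9 samples, 6 residual degrees of freedom), and all 18 samples entered the test of a difference between lines (12 residual degrees of freedom). The tests covered genes that reached a linear value of 1 in 3 or more samples: 17046 in HL-60, 17475 in MOLM-13 and 15474 in both. Adjusted p-values follow Benjamini and Hochberg over all of these genes, and an adjusted p under 0.05 is a call. Nothing says that replicates came from separate cultures, so p-values measure the spread between these samples, which may be technical. Depth is unknown, so no interval that needs it is given.

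All 9 members are named. Per list and line, up to 4 genes with the lowest p were eligible to be named, and for a member with a range of at least 0.5 the 2 genes with the highest Pearson's r. RNA genes named after a member were included. CCR2 was named besides, as were genes given only as list contents or as having no value. The members and lists were chosen with earlier results of these data known. Same-numbered replicates did not deviate together (r from −0.10 to 0.14 in HL-60 and from −0.21 to 0.08 in MOLM-13), so no pairing was used. The alternatives were no filter, a stricter filter (mean log2 value of at least 5), median centring, quantile normalization, no trend, a replicate block, fits of 2 groups and leaving out each sample. The fits were tested on simulated data. Promoter windows come from RefSeq (GRCh38.p14) and were not matched by position to the expression files. Protein sequences were not analysed here.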

Additional observations from a re-analysis of the deposited data

Results flagged for a closer look

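For 12 member and drug pairs the effect of the drug differed between the 2 lines by the direct test (MOLM-13 minus HL-60, limma, adjusted over 15474 genes), and every one of these differences was positive. They cover 7 of 8 members tested with DAC and 5 of 8 with NTX-301. Over all genes the same test called 30.0% with DAC, 12.1% higher and 17.9% lower. With NTX-301 it called 40.0%, 17.6% higher and 22.4% lower. The differences with DAC were 0.25 for SPI1, 0.23 for CEBPA, 0.26 for CEBPB, 0.21 for CEBPD, 0.47 for CEBPE, 0.42 for KLF4 and 0.17 for RUNX1. With NTX-301 they were 0.44 for SPI1, 0.14 for CEBPA, 0.16 for CEBPB, 0.30 for CEBPD and 0.14 for RUNX1. The CEBPB difference with NTX-301 (adjusted p 0.049) was lost in 14 of 18 fits with 1 sample left out, under quantile normalization (adjusted p 0.161) and with the replicate block (adjusted p 0.0767). With DAC, the CEBPD call was lost in 5 and the KLF4 call in 3 of 18 fits with 1 sample left out. The DAC and NTX-301 values share their DMSO samples. KLF4 was low in HL-60, where a fold change may be understated. The stated concentrations differ between the lines, so line and concentration cannot be told apart.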

How the results depend on the processing

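Of 67 member results, 35 were calls, and 26 of these kept direction and call under every alternative that could be run for them; of 1200 alternative values 1093 kept direction and side of the threshold, 55 lost a call, 31 gained one and 21 changed sign. None of the sign changes was of a value called in the fit reported, though 3 became calls of the opposite sign under quantile normalization; their cause was not tested. Median centring turned the NTX-301 minus DAC difference in HL-60 to −0.0055 for CEBPA and −0.028 for KLF4. Quantile normalization gave −0.0013 for GFI1 with DAC and −0.011 for KLF4 (NTX-301 minus DAC) in HL-60, 0.062 and 0.10 for GFI1 with DAC and NTX-301 (adjusted p 0.0261 and 0.00188) and 0.13 for CEBPA with NTX-301 (adjusted p 0.00213) in MOLM-13, and 0.064 and 0.015 for the line difference of GFI1. With 1 sample left out, values ranged from −0.0063 to 0.014 for GFI1 with DAC in HL-60, from −0.016 to 0.0093 for KLF4 (NTX-301 minus DAC, HL-60), from −0.038 to 0.0077 for CEBPA and from −0.0095 to 0.0025 for GFI1 with NTX-301 in MOLM-13, and from −0.0083 to 0.035 for RUNX1 (NTX-301 minus DAC, MOLM-13).

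Members called for NTX-301 against DAC in HL-60 rose from 2 to 5 under quantile normalization, and those for NTX-301 against DMSO in MOLM-13 from 3 to 6 under quantile normalization and 5 under the stricter filter. Members called for DAC against DMSO in MOLM-13 ranged from 4 to 7 with 1 sample left out. With the replicate block, genes called for NTX-301 against DAC in MOLM-13 fell from 1297 to 817, and they ranged from 462 to 1322 with 1 sample left out. The block lost the calls of CEBPD with DAC in MOLM-13 (0.14, adjusted p 0.0784) and of the NTX-301 line difference of CEBPB (0.16, adjusted p 0.0767), and gained that of CEBPE (0.16, adjusted p 0.0404). The fit of 2 groups was run within lines only. Depth is unknown, so how far it limits these values cannot be given.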
